A study of Oryza sativa Japonica Group with 8 samples.

Results

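The genes described here are 10 loci of rice that make or remove active gibberellin, out of 38726 features in a table of gene-level read counts. They were chosen by their RAP locus identifiers, and all 10 passed the filter on low counts. Gibberellins are growth hormones that promote stem elongation and act in the development of flowers. GA 20-oxidases carry out the late oxidation steps that yield the direct precursors of active gibberellin, and GA 3-oxidases turn those precursors into the active hormone. GA 2-oxidases inactivate it, and EUI, a cytochrome P450 (CYP714D1) named for the elongated uppermost internode of its mutant, deactivates gibberellins by epoxidation. The level of active hormone in a tissue therefore depends on which of these enzymes its cells make.

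The plants were wild-type, untreated rice of the japonica cultivar Nipponbare, and pistils were taken at heading. The rice pistil, the female organ, is built with an ovary below and the style and stigma above. Whole-cell RNA came from the upper part (n = 3) and the lower part (n = 3) of the pistil, and RNA of sorted nuclei came from pistils (n = 2). Where the cut was made, and whether replicates are separate plants, is not stated in the labels. The p-values therefore cover the spread among these libraries alone, and it may be technical. Total counts were 24796307 to 35518142 in the 6 whole-cell libraries and 9268151 and 10857036 in nuclei. Whole-cell and nuclei libraries were made with different kits, so kit and compartment cannot be told apart. Lower replicate 3 resembled the opposite part more than its own. Over genes, its Spearman correlation averaged 0.878 within the lower part and 0.919 with upper replicates, whereas each of the other 5 whole-cell libraries was closer to its own part. Results are therefore given with and without it.

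All 4 genes listed as carpel and ovule markers, DL, MADS3, MADS58 and MADS13, were well expressed. Their summed level was 1094 to 2292 CPM (counts scaled to a common library size, with TMM factors) over the 8 libraries. In whole-cell libraries MADS3 had 417 to 715 CPM, MADS58 318 to 1010 CPM and MADS13 175 to 569 CPM. DL, a YABBY gene that specifies carpels, had 253 to 460 CPM in the upper pistil, 50.6 to 112 CPM in the lower pistil and 271 and 292 CPM in nuclei. MADS16, a B-class gene of lodicules and stamens, had 261 to 710 CPM in the upper pistil, 269, 158 and 676 CPM in lower replicates 1, 2 and 3, and 30.3 and 163 CPM in nuclei. The 4 anther genes UDT1, TDR, EAT1 and CYP703A3, which act in the tapetum, together had 3.46 to 6.24 CPM in whole-cell libraries and 5.78 and 14.5 CPM in nuclei.

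**Figure D1:**
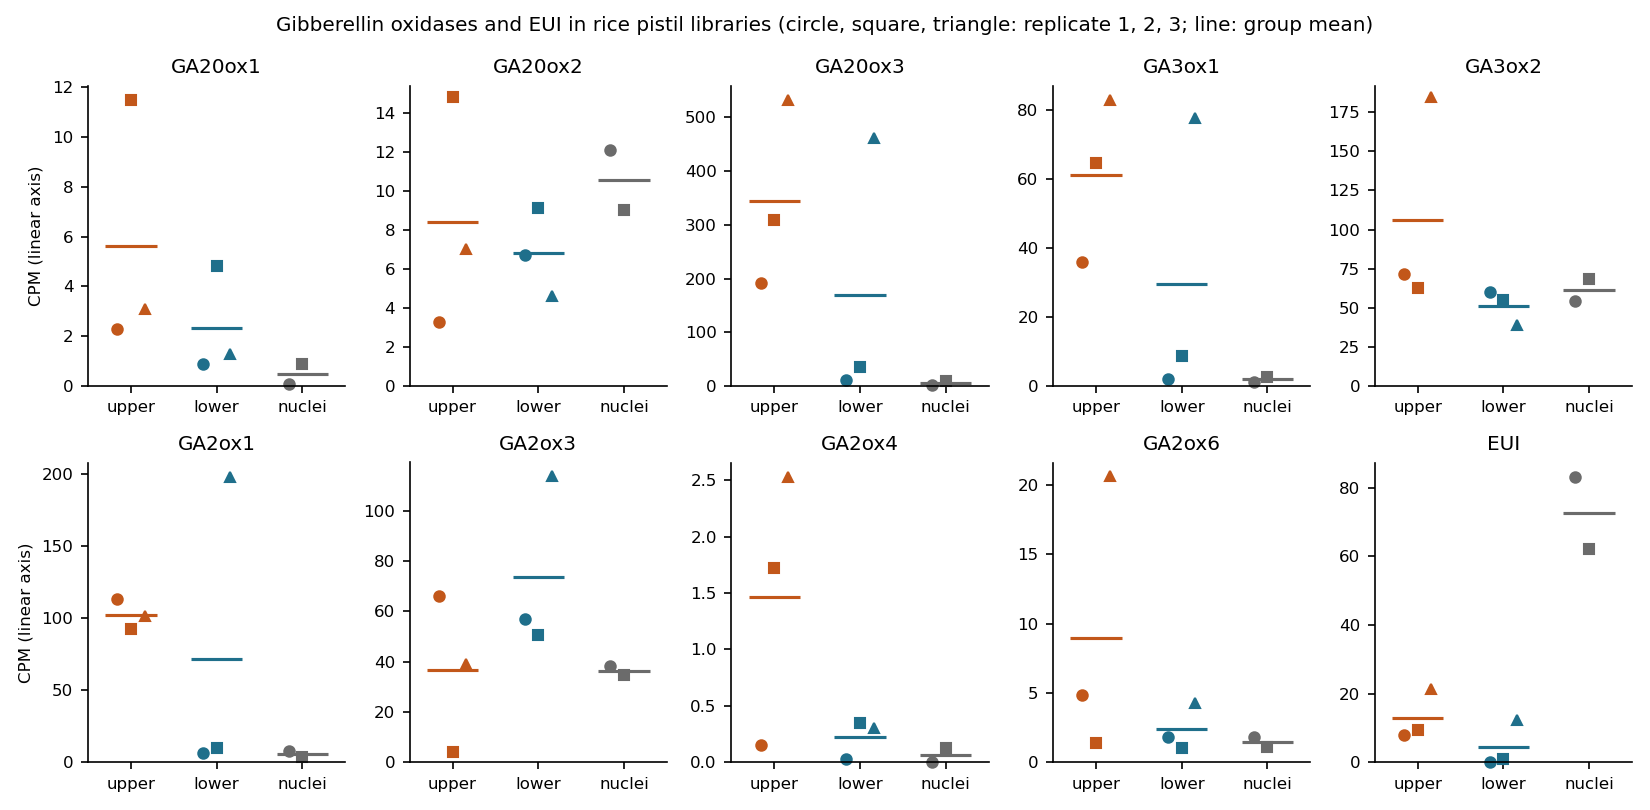
CPM (linear axis) of the 10 genes in each library, by group, with a line at the group mean and marker shapes for replicate numbers. GA20ox3, GA3ox1, GA2ox1 and EUI were low in lower replicates 1 and 2 and high in lower replicate 3 (for GA20ox3, 11.4 and 35.0 against 461 CPM), and EUI was highest in nuclei.

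The first comparison set the upper part against the lower. A difference was called at an adjusted p under 0.05 (edgeR quasi-likelihood test, Benjamini-Hochberg adjustment over all genes tested) and a log2 change of at least 1 in size. Over all 6 libraries, 0 of the 10 genes were called, where 0.814% of 29848 genes were (0.811% higher and 0.00335% lower in the upper part). The 10 genes had a median log2 change of 1.06, against -0.02 over all genes, and 9 of the 10 values were positive. At an unadjusted p under 0.05 there was 1 of the 10, GA2ox4, where 13.9% of all genes were. DESeq2 gave no p for GA2ox1 and EUI, which is its mark for an outlying count. It called 0 of the other 8 genes, with 3 at an unadjusted p under 0.05, where 15.8% of genes with a p were. Upper and lower libraries of one replicate number deviated together and were taken as pairs. With the replicate number as a block, 8.14% of all genes were called (5.12% higher, 3.02% lower) and again 0 of the 10, with 6 at an unadjusted p under 0.05, where 33.5% of all genes were. With the block the log2 change was 2.58 for GA20ox3, 2.44 for GA3ox1, 2.41 for GA2ox1 and 2.78 for EUI. Their edgeR adjusted p were 0.104, 0.111, 0.210 and 0.0817. For GA3ox2, GA2ox6, GA20ox2 and GA2ox3 the blocked value was 0.89, 1.43, 0.14 and -1.59 (edgeR adjusted p = 0.217, 0.0840, 0.839 and 0.192). Changes between parts given by gene below are without the block unless stated. A difference between parts can reflect fewer cells of a type or less RNA per cell, which cannot be told apart in bulk samples.

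Without lower replicate 3 edgeR called 4 of the 10 genes higher in the upper part, GA20ox3, GA3ox1, GA2ox1 and EUI, where 3.15% of 30456 genes were called, 3.01% higher and 0.138% lower. None of the 10 was called lower in that fit, and the median of the 10 log2 fold changes was 2.78. These 4 genes include 1 of each enzyme kind: a 20-oxidase, a 3-oxidase, a 2-oxidase and EUI. In each, lower replicates 1 and 2 lay below every upper library while lower replicate 3 reached or passed the lowest upper library. That pattern, defined after the values were seen, was found in 12.2% of all genes tested. Lower replicate 3 was singled out by its likeness to the upper libraries in these same counts. Leaving it out therefore favours a difference between the parts. The adjusted p of upper against lower without it, here and below, are a description and not a separate test.

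Among the 20-oxidases, GA20ox3 (Os07g0169700, chromosome 7) had 191, 308 and 532 CPM in upper replicates 1, 2 and 3, 11.4, 35.0 and 461 CPM in lower replicates 1, 2 and 3, and 1.64 and 8.54 CPM in nuclei. Lower replicate 3 thus sat between the upper libraries, at 19.9-fold the mean of the other lower libraries, while both nuclei libraries were below every whole-cell library. Upper over lower, its log2 change was 1.02 (SE 1.20, 95% interval -1.78 to 3.82, edgeR adjusted p = 0.704). Without lower replicate 3 it was 3.93 (SE 0.74, edgeR adjusted p = 0.0437).

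GA20ox1 (Os03g0856700, chromosome 3) had 2.29, 11.5 and 3.07 CPM in the upper pistil, 0.872, 4.80 and 1.29 CPM in the lower pistil and 0.0911 and 0.879 CPM in nuclei. The parts overlapped, since replicate 2 was the highest in both. Within replicate numbers, however, the upper part was 2.62-, 2.39- and 2.38-fold above the lower, and lower replicate 3 did not stand out. With the block the log2 change was 1.31 (SE 0.30, edgeR adjusted p = 0.0538), which missed the threshold.

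GA20ox2 (Os01g0883800, chromosome 1), the semidwarf gene sd1 of rice breeding, had 3.30, 14.8 and 7.05 CPM in the upper pistil, 6.72, 9.15 and 4.60 CPM in the lower pistil and 12.1 and 9.05 CPM in nuclei. All groups overlapped. Upper over lower, its log2 change was 0.32 (SE 0.57, 95% interval -1.01 to 1.65, edgeR adjusted p = 0.805), and its sign turned without upper replicate 2 (-0.39) and under scaling by library size alone (-0.01).

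The 3-oxidases showed different patterns. GA3ox1 (Os05g0178100, chromosome 5) had 36.1, 64.8 and 83.0 CPM in the upper pistil, 1.94, 8.75 and 77.8 CPM in the lower pistil and 1.27 and 2.64 CPM in nuclei. As for GA20ox3, the first and second lower replicates were low and the third lay within the upper range, at 14.6-fold their mean. Upper over lower, the log2 change was 1.05 (SE 1.11, 95% interval -1.52 to 3.63, edgeR adjusted p = 0.664), and without lower replicate 3 it was 3.57 (SE 0.71, edgeR adjusted p = 0.0466).

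GA3ox2 (Os01g0177400, chromosome 1), the gene mutated in the dwarf d18, had 71.8, 62.3 and 185 CPM in the upper pistil, 60.0, 54.8 and 38.8 CPM in the lower pistil and 54.0 and 68.2 CPM in nuclei. It was the only one of the 10 genes in which every upper library was above every lower library, an order found in 9.91% of all genes tested. Pairs 1 and 2 differed by 1.20- and 1.14-fold, and pair 3 by 4.75-fold. The edgeR log2 change was 1.07 (SE 0.46, 95% interval -0.01 to 2.15, edgeR adjusted p = 0.362). Without upper replicate 3 it was 0.42, so its size rested on that library.

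**Figure D2:**
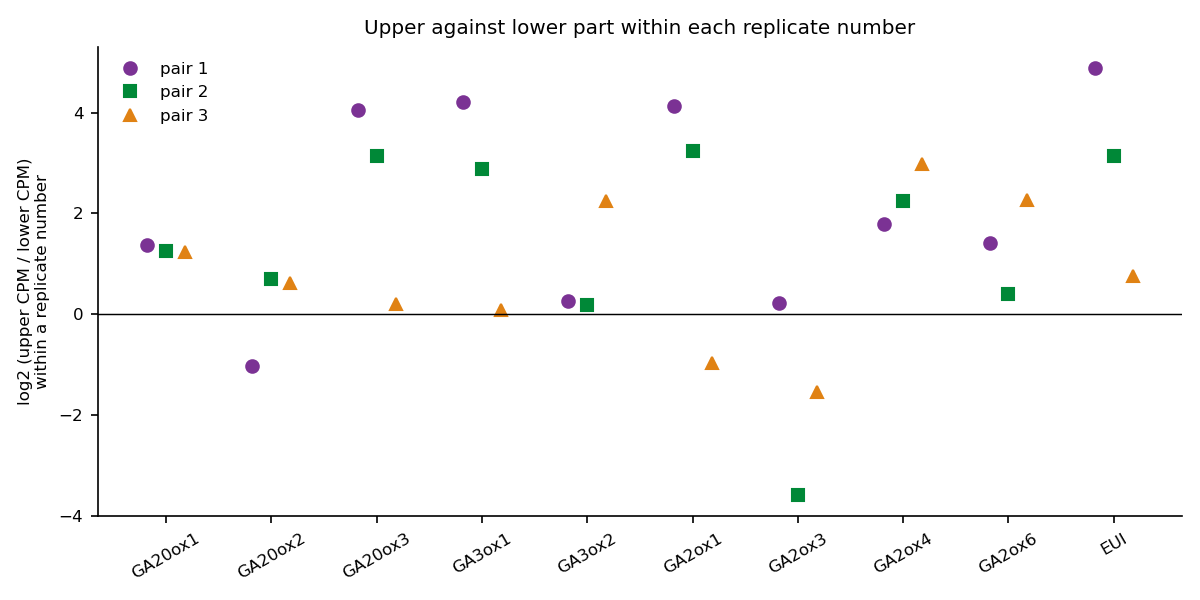
Log2 ratio of upper over lower CPM within each replicate number for the 10 genes. For GA20ox3, GA3ox1, GA2ox1 and EUI pairs 1 and 2 lie between 2.89 and 4.88 and pair 3 between -0.97 and 0.77, whereas GA20ox1 has 1.37, 1.26 and 1.24 in the 3 pairs.

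Of the 2-oxidases, GA2ox1 (Os05g0158600, chromosome 5) had 114, 92.4 and 101 CPM in the upper pistil, 6.43, 9.73 and 198 CPM in the lower pistil and 8.20 and 4.02 CPM in nuclei. The upper libraries were close to each other, and lower replicate 3 was the highest of all 8, at 24.6-fold the mean of the other lower libraries. Upper over lower, the log2 change was 0.52 (SE 1.15, 95% interval -2.16 to 3.19, edgeR adjusted p = 0.848). It was 3.68 (SE 0.39, edgeR adjusted p = 0.0152) without lower replicate 3 and -0.02 without lower replicate 1.

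GA2ox3 (Os01g0757200, chromosome 1) had 66.3, 4.19 and 39.2 CPM in the upper pistil, 56.9, 50.5 and 114 CPM in the lower pistil and 38.3 and 34.7 CPM in nuclei. Upper replicate 2 was far below the other libraries, and the parts overlapped. It was the only one of the 10 with a negative log2 fold change of upper over lower, -1.002 (SE 0.83, 95% interval -2.93 to 0.93, edgeR adjusted p = 0.581). Without upper replicate 2 the value was -0.48. With the block and without pair 1 it was called lower, at -2.48 (SE 0.47, edgeR adjusted p = 0.0214). In that fit 11.7% of all genes were called.

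GA2ox4 (Os05g0514600, chromosome 5) had 0.150, 1.72 and 2.53 CPM in the upper pistil, 0.0323, 0.352 and 0.304 CPM in the lower pistil, and 0 counts and 1 count in nuclei replicates 1 and 2; the 0 allows up to 0.273 CPM. Its upper part was 4.90- and 8.32-fold higher in pairs 2 and 3. Pair 1 held 4 counts against 1, a ratio of 4.64 with an exact 95% counting interval from 0.459 to 228. Upper replicate 1 was below 2 of the lower libraries. The estimated log2 change was 2.65 (SE 1.13, edgeR adjusted p = 0.357), and with the block 2.57 (SE 0.60, edgeR adjusted p = 0.0556).

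GA2ox6 (Os04g0522500, chromosome 4), which belongs to the class of 2-oxidases that acts on gibberellin precursors, had 4.87, 1.40 and 20.6 CPM in the upper pistil, 1.81, 1.06 and 4.25 CPM in the lower pistil and 1.82 and 1.13 CPM in nuclei. Replicate 3 was the highest in both parts, and the groups overlapped. On the log2 scale the difference was 1.92 (SE 0.97, edgeR adjusted p = 0.416), and 0.42 without upper replicate 3.

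EUI (Os05g0482400, chromosome 5) had 8.06, 9.39 and 21.3 CPM in the upper pistil, 0.259, 1.06 and 12.5 CPM in the lower pistil and 83.2 and 62.3 CPM in nuclei. It was low in the first and second lower replicates, while the third lay within the upper range, at 19.0-fold their mean. Upper over lower, the log2 change was 1.49 (SE 1.19, 95% interval -1.28 to 4.26, edgeR adjusted p = 0.568), and without lower replicate 3 it was 4.32 (SE 0.81, edgeR adjusted p = 0.0437). In all 3 pairs the upper library was higher, by 31.2-, 8.90- and 1.70-fold. The upper library was above the lower in all 3 pairs for 7 of the 10 genes, GA20ox1, GA20ox3, GA3ox1, GA3ox2, GA2ox4, GA2ox6 and EUI, as it was for 28.6% of all genes tested; for GA2ox4 pair 1 rests on the 5 counts given above.

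**Figure D3:**
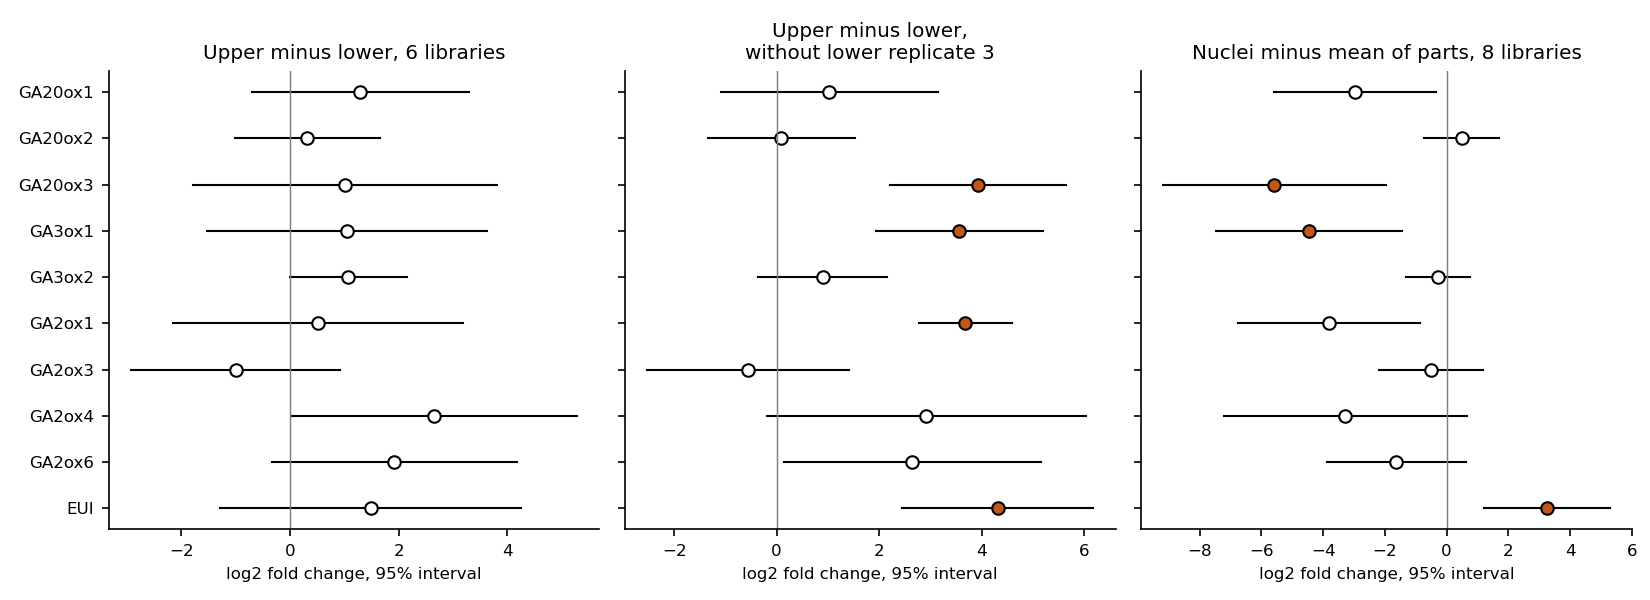
Log2 fold changes with 95% intervals from edgeR for upper minus lower with all 6 libraries, for the same without lower replicate 3, and for nuclei minus the mean of the parts. Filled points passed the call rule: 0 in the first, GA20ox3, GA3ox1, GA2ox1 and EUI in the second, and GA20ox3, GA3ox1 and EUI in the third.

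The second comparison was of nuclei with the parts, using the mean of the parts' log2 levels, and it shares the whole-cell libraries with the first. EUI was called higher in nuclei, and GA20ox3 and GA3ox1 were called lower. That is 1 gene higher and 2 lower of 10, where 14.1% and 8.76% of 31858 genes were called (22.9% in all), so the share called is near that of all genes. The 10 genes had a median log2 change of -2.29, against -0.03 over all genes, and 8 of the 10 were negative. Without lower replicate 3, EUI was called higher and GA20ox3, GA3ox1 and GA2ox1 lower, where 13.4% of all genes were called higher and 8.31% lower (21.7% in all).

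EUI had a log2 fold change of 3.24 (SE 0.92, 95% interval 1.20 to 5.28, edgeR adjusted p = 0.0311), a 9.47-fold difference. Both nuclei libraries were above every whole-cell library, as in 17.6% of all genes tested. Without lower replicate 3 the value rose to 4.63 (SE 0.54, edgeR adjusted p = 0.000481). The call was lost without either nuclei library or without upper replicate 1 or 2, with edgeR adjusted p from 0.0516 to 0.175 and log2 fold changes from 3.02 to 3.43. It was also lost against the upper part alone (2.496, edgeR adjusted p = 0.138). DESeq2 gave no adjusted p for it (log2 fold change 3.26).

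GA20ox3 was 47.7-fold lower in nuclei, with a log2 fold change of -5.58 (SE 1.62, 95% interval -9.18 to -1.98, edgeR adjusted p = 0.0341). Both nuclei libraries lay below every whole-cell library, which 17.6% of all genes did. Its value was -4.14 (edgeR adjusted p = 0.00883) without lower replicate 3. Without nuclei replicate 1 it was -4.82 and without nuclei replicate 2 it was -7.21, and in both the call was lost (edgeR adjusted p = 0.220 and 0.0875). Against the lower part alone it was -5.06 (edgeR adjusted p = 0.0590).

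GA3ox1 was 22.0-fold lower in nuclei, with a log2 fold change of -4.46 (SE 1.35, 95% interval -7.46 to -1.45, edgeR adjusted p = 0.0398). Nuclei were below the upper libraries and overlapped the lower part, where replicate 1 had 1.94 CPM. Its value was -3.23 (edgeR adjusted p = 0.0104) without lower replicate 3. The call was lost without either nuclei library (log2 fold changes -4.01 and -5.06, edgeR adjusted p = 0.248 and 0.132) and without upper replicate 1 or 3 (-4.60 and -4.31, edgeR adjusted p = 0.0545 and 0.0565). Against the lower part alone it was -3.93 (edgeR adjusted p = 0.0753).

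The other 7 genes were not called. GA2ox1 had -3.80 (SE 1.33, edgeR adjusted p = 0.0628) and was called lower with scaling by library size alone, without the filter on low counts, and without any 1 of the lower libraries; without lower replicate 3 the log2 change was -2.23 (SE 0.45, edgeR adjusted p = 0.00713). GA20ox1 had -2.96 (SE 1.18, edgeR adjusted p = 0.0935; called by DESeq2, adjusted p = 0.0184), and GA2ox6 -1.63 (SE 1.01). GA2ox4 had -3.29 (SE 1.77, 95% interval -7.22 to 0.65, edgeR adjusted p = 0.198). Pooled over libraries it had 141 counts in whole cells and 1 in nuclei, a ratio of whole cells to nuclei of 14.9. The exact 95% counting interval of that ratio, from 2.63 to 592, leaves out the spread between libraries. GA20ox2, GA3ox2 and GA2ox3 lay closest to 0, with 95% intervals of -0.73 to 1.69, -1.30 to 0.76 and -2.20 to 1.19 on the log2 scale.

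Other genes of the gibberellin pathway were taken from a list of 15 loci, of which 14 could be tested. Between the parts 0 were called, where 0.814% of all genes were (11 of 14 log2 fold changes were positive, median 0.52). Os01g0209700 and GID1 had an edgeR unadjusted p under 0.05, as did 13.9% of all genes. With the replicate block 1 of the 14 was called, where 8.14% of all genes were. It was CYP714B1, a P450 of gibberellin oxidation, higher in the upper part (log2 change 1.07, SE 0.21, edgeR adjusted p = 0.0392). This call was lost without pair 2 or 3 (edgeR adjusted p = 0.134 and 0.183). The marker DL was also called higher with the block (2.32, SE 0.32, edgeR adjusted p = 0.0195; 0.120 without pair 2).

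Of the early enzymes, CPS1, which makes the first committed intermediate, had 77.9, 67.1 and 148 CPM in the upper pistil, 3.91, 16.6 and 133 CPM in the lower pistil and 2.64 and 3.27 CPM in nuclei. KAO, the kaurenoic acid oxidase, had 89.3, 245 and 253 CPM in the upper pistil, 4.65, 28.0 and 174 CPM in the lower pistil and 1.55 and 15.2 CPM in nuclei. Both had the pattern described for GA20ox3, with the first and second lower replicates low and the third within the upper range, as did, with smaller steps, KO2 and CYP714B1, where lower replicate 3 was 1.62- and 2.78-fold the mean of the other lower libraries. KS1 and KO2, the enzymes of the steps between them, varied less, from 31.8 to 95.6 and from 53.5 to 121 CPM over the 8 libraries. Without lower replicate 3, CPS1 was called higher in the upper part (log2 change 3.30, SE 0.70, edgeR adjusted p = 0.0499) and KAO was not (3.64, SE 0.86, edgeR adjusted p = 0.0603).

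In lower replicate 3 MADS16 was 3.16-fold the mean of the other lower libraries. The carpel and ovule markers DL, MADS13, MADS3 and MADS58 were 0.581-, 0.731-, 1.01- and 1.09-fold that mean. Of the 4 tapetum genes TDR had 0.129, 0.126 and 0.722 CPM in lower replicates 1, 2 and 3, from 4, 5 and 19 counts. UDT1 and CYP703A3 were lowest in replicate 3, at 1.56 and 1.14 CPM. EAT1 had 0, 4 and 1 counts in lower replicates 1, 2 and 3. The part of other tissue in the levels of GA20ox3, GA3ox1, GA2ox1, EUI, CPS1 and KAO in that library was not tested. A level at least 4-fold above the mean of the other lower libraries was found in 7.46% of all genes tested.

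Between nuclei and parts 3 of the 14 tested loci of the list were called higher and 2 lower, where 14.1% and 8.76% of all genes were. CPS1 was lower (log2 change -4.58, SE 1.29, edgeR adjusted p = 0.0309), a call lost without either nuclei library (edgeR adjusted p = 0.208 and 0.132) and against the lower part alone (0.0575). SLR1, the DELLA repressor of gibberellin responses, was lower too (-3.39, SE 0.68, edgeR adjusted p = 0.00806), with 117 to 320 CPM in whole-cell libraries and 11.9 and 24.0 CPM in nuclei; its call was lost without nuclei replicate 1 (-2.97, edgeR adjusted p = 0.0876). CYP714B2 was higher, with 13.9 to 36.1 CPM in whole-cell libraries and 81.9 and 65.1 CPM in nuclei (1.53, SE 0.35, edgeR adjusted p = 0.0148; 1.35 and 0.117 without nuclei replicate 1). The remaining loci called higher were Os01g0209700 (3.11, SE 0.36, edgeR adjusted p = 0.000584) and Os02g0630300 (2.56, SE 0.62, edgeR adjusted p = 0.0178). The list names them GA2ox7 and GA2ox9, that is as 2-oxidases, without a match of the name in the RefSeq table. Os01g0209700 had 7.07 to 23.6 CPM in whole-cell libraries and 123 and 70.7 CPM in nuclei. Os02g0630300 had 0.535 to 4.48 CPM in whole-cell libraries and 19.8 and 8.04 CPM in nuclei. The call of Os02g0630300 was lost without nuclei replicate 1 (1.76) and against the lower part alone. For the receptor gene GID1 the value was -0.17 (SE 0.36) and for the F-box gene GID2 it was -0.19 (SE 0.35), neither called. Of the 9 markers EAT1 and CYP703A3 were called higher in nuclei (3.49 and 1.90, edgeR adjusted p = 0.0481 and 0.0472), at levels of at most 8.29 CPM. Without lower replicate 3 neither was called (edgeR adjusted p = 0.0625 and 0.0686), EAT1 was not called without either nuclei library, and CYP703A3 was not without nuclei replicate 1; their part in the differences given for nuclei was not tested.

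Likeness between genes was measured as the root-mean-square difference of their log2 CPM profiles over the 8 libraries, each centred on its own mean. Among the 10 genes GA20ox3 and GA3ox1 were the closest, at 0.72, and 0.518% of tested genes were nearer to GA20ox3 than GA3ox1 was. GA3ox1 and GA2ox1 came next, at 0.81. These profiles share the step between nuclei and whole cells and the high level of lower replicate 3, so the values are a description. For the 3 genes with the highest mean CPM, which is not per length, the nearest other locus was named by rule. For GA20ox3 it was Os06g0636800, at 0.19, with 74.1, 104 and 225 CPM in the upper pistil, 3.46, 13.9 and 137 CPM in the lower pistil and 0.546 and 3.52 CPM in nuclei. For GA3ox2 it was Os01g0177500, at 0.019, and for GA2ox1 it was Os05g0158700, at 0.20, in each case the next locus by number on the chromosome.

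The count table therefore bears on how far single genes can be read. After this was seen, every gene was set against its neighbours by locus number. EUI had no neighbour that passed the filter on low counts. Of the other 9 genes, 5 had a neighbour within 0.5 on this scale, GA20ox2, GA3ox2, GA2ox1, GA2ox3 and GA2ox6, where 31.2% of all loci with a tested neighbour did. The counts of Os01g0177500 were 0.892 to 0.929 times those of GA3ox2 in every library. Those of Os04g0522625 were 0.750 to 1.00 times those of GA2ox6, and those of Os05g0158700 were 0.870 to 1.42 times those of GA2ox1. For GA20ox2 and GA2ox3 the neighbours Os01g0883850 and Os01g0757301 had 0.250 to 0.596 and 0.254 to 0.520 times their counts. Whether the same reads were counted at both loci, or reads of the opposite strand at one of them, was not tested, so the levels of these 5 genes are uncertain to that extent. GA20ox1, GA20ox3, GA3ox1 and GA2ox4 had no such neighbour among tested loci; for GA2ox4 the next locus, Os05g0514701, was at 0.55.

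**Figure D4:**
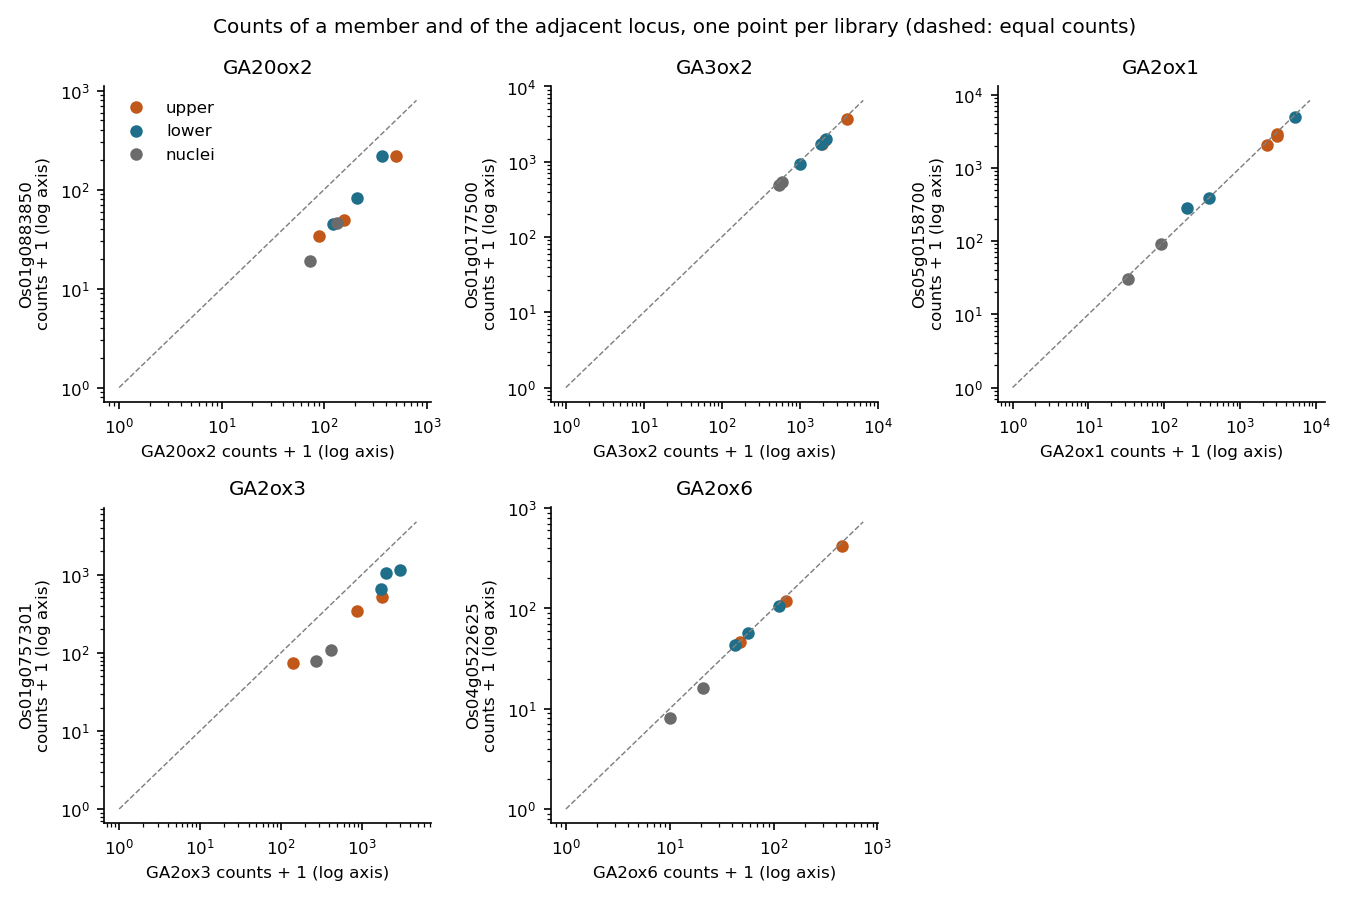
Counts plus 1 of 5 genes and of the adjacent locus, one point per library, on log axes, with a dashed line at equal counts. Points of GA3ox2 and GA2ox6 follow the line closely, with neighbour counts of 0.892 to 0.929 and 0.750 to 1.00 times those of the gene, and points of GA20ox2 and GA2ox3 run below it.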

How the data were processed

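Per the labels' protocols, polyA RNA libraries of the parts came from a directional kit and those of PI-sorted nuclei from a SMART-Seq kit. The submitters' processing notes name STAR, featureCounts, DESeq2 and build IRGSP-1.0; their versions, the strand setting and the treatment of overlapping loci were not given in the sources used here. Raw counts, not normalized, were deposited as 1 table, whose 8 columns were matched to samples by name with 0 left unused.

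Counts were tested with edgeR 4.0.16 in R 4.3.3 (quasi-likelihood test, TMM scaling, low counts removed by filterByExpr, p-values adjusted by Benjamini-Hochberg over all genes), upper against lower in 6 libraries and nuclei against the mean of the parts in 8. Standard errors come from the quasi-likelihood F. CPM use TMM-scaled library sizes over 8 libraries; a floor of 3 counts equals 0.273 and 0.377 CPM in nuclei and 0.0754 to 0.136 CPM in the other libraries, for counting error only. Within-pair ratios on the log2 scale use a prior count of 0.5. Alternatives were DESeq2 1.42.0, other scalings, no filter, a replicate block, no minimum fold and leaving out each library; the block without a pair or without lower replicate 3, and the comparison of neighbouring loci, were added after the data were seen.

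The fits were tested on simulated counts. In both comparisons few or none of the changes of 2- and 4-fold were recovered, and many of those of 8- and 16-fold were missed. A gene that was not called may therefore still differ, also by a large fold. The correlation of deviations from group means between same-numbered upper and lower libraries was 0.313, 0.602 and 0.600. The numbers were therefore taken as pairs in the block and the within-pair ratios, while the main fit had no block. What the numbers share is not stated in the labels.

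The 10 genes and all lists were chosen with earlier results of these data known. The rule for named genes was all 10 members with every library, the pathway loci where called, and the locus nearest in profile to each of the 3 members with the highest mean CPM; KS1, KO2, KAO, CYP714B1, GID1 and GID2 were named after their values were seen. Names of the 10 genes came with their list. The RefSeq table of assembly ASM3414082v1 does not carry these locus identifiers. A gene of the same name on the same chromosome was found for 22 of the 34 listed loci. Of the 5 pathway loci without one, Os01g0209700 and Os02g0630300 are given by identifier with their list names, and the others are not named. Of the 10 genes 3 had one, GA20ox2, GA20ox3 and EUI, and the other 7 keep the names of their list without that match. No gene lengths of the build were used, so CPM do not rank genes by level, and no sequences were used.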

Additional observations from a re-analysis of the deposited data

How the results depend on the processing

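Between the parts 243 genes were called, 1690 with DESeq2 and 2431 with the replicate block, and 0 to 958 with a library left out; the 0 arose without lower replicate 1 (edgeR; unadjusted p under 0.05 in 1589 genes higher and 842 genes lower). With the block the count was 3549, 98 and 2933 without pair 1, 2 or 3. Of the 10 genes 0 to 4 were called with a library left out, the 4 without lower replicate 3 (3.15% of all genes). With the block and without pair 1, 2 or 3 it was 1, 0 and 4. The shares of all genes called in these 3 fits were 11.7%, 0.325% and 9.76%. The call was 0 under the other alternatives run for this comparison (DESeq2, both scalings, no filter, the block, no minimum fold).

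The log2 fold change of GA20ox2 between the parts ran from -0.39 to 0.70 with a library left out, and was -0.0080 with library size scaling and -0.20 and -0.17 with the block and without pair 2 or 3. That of GA2ox1 ran from -0.024 to 3.68 with a library left out. The cause was not tested.

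Between nuclei and parts 7293 genes were called, and 2378 to 6889 with a library left out, fewest without nuclei replicate 1. Of the 10 genes 3 were called, where 22.9% of all genes were. The count was 1 without upper replicate 1 (17.7% of all genes) and 2 without upper replicate 2 or 3 (20.1% and 17.4%). It was 4 without any 1 of the lower libraries (20.9% to 21.7%). The 3 calls were lost without either nuclei library, which leaves 1 in that group. Against the lower part alone 1 was called (15.5% of all genes). With the block and without lower replicate 3 it was 5 (24% of all genes). Deviations of nuclei replicates 1 and 2 correlated at 0.0564 and -0.0317 with the same-numbered upper and at 0.322 and 0.109 with the same-numbered lower libraries. With 2 nuclei libraries and no label that says what a number marks, nuclei were not taken as paired. The replicate block gave 9502 genes (29.8%) and 4 of the 10, GA20ox1 being added (-3.30). Reversed values were 0.062 for GA2ox3 with the block, 0.053 with the block and without lower replicate 3, and for GA3ox2 0.26 against the lower part alone and -0.47 to 0.057 with a library left out. GA2ox4 failed the filter without upper replicate 2 or 3 in this comparison. Depth limits GA2ox4 and GA20ox1 most, at 0 and 1 counts in a nuclei library.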
